A study of Mus musculus with 8 samples.

Results

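The genes described are 10 markers of the mesothelium and the epicardium, Msln, Gpm6a, Lrrn4, Upk1b, Upk3b, Wt1, Aldh1a2, Krt8, Krt18 and Krt19. They were taken as the array spots whose only gene symbol was one of these names. All 10 were on the array with 1 spot each, among 13661 genes with a single symbol and 33600 spots. In the RefSeq annotation they lie on chromosomes 17 (Msln), 8 (Gpm6a), 2 (Lrrn4 and Wt1), 16 (Upk1b), 5 (Upk3b), 9 (Aldh1a2), 15 (Krt8 and Krt18) and 11 (Krt19). The mice were C57Bl/6, 8 to 10 weeks old, and total RNA was taken from the whole heart. The 4 infarcted hearts had a permanent ligature on the left coronary artery's descending branch, and the 4 sham control hearts had the suture placed but left untied, so both groups had undergone thoracotomy under ketamine and xylazine. The sex of the mice and the time between surgery and tissue collection are not given in the sources used here. Each heart had its own 2-colour array of spotted oligonucleotides, on which a pooled reference RNA of adult mouse organs (aorta, brain, heart, kidney, liver, lung, gonads, spleen and stomach) carried the other dye.

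The epicardium is the mesothelial sheet that covers the heart, and like the linings of the pleura and the peritoneum it makes mesothelin, uroplakins and the keratins of simple epithelia. In the embryo it is marked by the transcription factor WT1 and by the retinoic acid enzyme encoded by Aldh1a2, and in mouse hearts both are known to be switched on again in the epicardium after injury. In whole hearts this sheet is a very small share of the tissue, and fewer cells of a type cannot be told apart from less RNA per cell. Keratins 8, 18 and 19, uroplakins and Gpm6a are also made by cells outside the mesothelium, in lung, gut, bladder or brain.

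Levels are given as log2 of a spot's signal over the median of its block of 700 spots, so that 0 is the median spot of a block and no level compares one gene with another. The values hold the signal of 1 channel, taken here to be the heart's, which the files do not settle. Of 10 cardiomyocyte markers 9 were on the array, and the tested Ckm, Pln and Ryr2 had mean levels of 5.96, 6.57 and 3.48 on infarcted arrays, against 6.65, 6.30 and 3.46 on sham arrays. After quantile normalization the log2 fold change of Ckm turned from -0.69 to 0.23. Those of Pln and Ryr2 went from 0.27 to 0.91 and from 0.02 to 0.37. The other cardiomyocyte markers were bright (means of 5.68 for Tnni3 to 7.07 for Mb on infarcted arrays) but lacked values, mainly on sham arrays. Infarcted and sham values numbered 4 and 1 for Tnni3 and Actc1, 3 and 1 for Myl2, and 3 and 2 for Tnnt2. They numbered 3 and 0 for Myl3 and 2 and 0 for Mb. Some genes known from organs of the reference pool also had levels above the block median, and others had mean levels below it. The brain gene Mbp, for example, had means of -0.64 on infarcted arrays and -0.53 on sham arrays. The sperm protamine gene Prm2 stood at 2.46 ± 0.33 on infarcted arrays and 4.15 ± 0.35 on sham arrays (SD, n = 4 each). Values were present for 21916 to 23655 spots on infarcted arrays and for 19704 to 24819 spots on sham arrays. The level exceeded by 1% of spots with a value was 5.05 to 5.24 on infarcted arrays and 5.65 to 6.31 on sham arrays. Fold changes of bright genes therefore depend on the normalization. The number of arrays limits the precision.

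Of the 10 genes, 8 had a value on at least 3 arrays of each group and were tested, Lrrn4 had too few, and Msln had values in infarcted hearts alone. None of the 8 passed the test (limma, Benjamini-Hochberg adjusted p under 0.05 over 18044 features), where 0.549% of all features did so (0.0554% higher and 0.493% lower in infarcted hearts), and 0 of the 8 had an unadjusted p under 0.05, against 12.3% of all features. The unadjusted count rested on single arrays, since it was 3 (Krt8, Krt19 and Wt1) without sham control replicate 2 and 2 without infarcted replicate 3 or 4. Without sham control replicate 2, Wt1 had only 2 sham values. The groups overlapped for all 8 genes, whereas they did not overlap for 8.89% of all features. Among the fold changes, 5 were positive (Gpm6a, Upk1b, Upk3b, Wt1 and Aldh1a2) and 3 negative (Krt8, Krt18 and Krt19), where 7673 of all features were positive and 10371 negative. These signs are a description, since the 95% intervals of all 8 genes included 0. The median of the 8 log2 fold changes was 0.28, beside -0.08 over all features tested, but it was 0.10 without infarcted replicate 4 or without sham control replicate 2, and -0.01 over the 6 genes with values on all 8 arrays. The number of features that passed depended on single arrays, from 3 without infarcted replicate 3 to 666 without sham control replicate 4, while none of the 8 genes passed in any such fit.

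**Figure D1:**
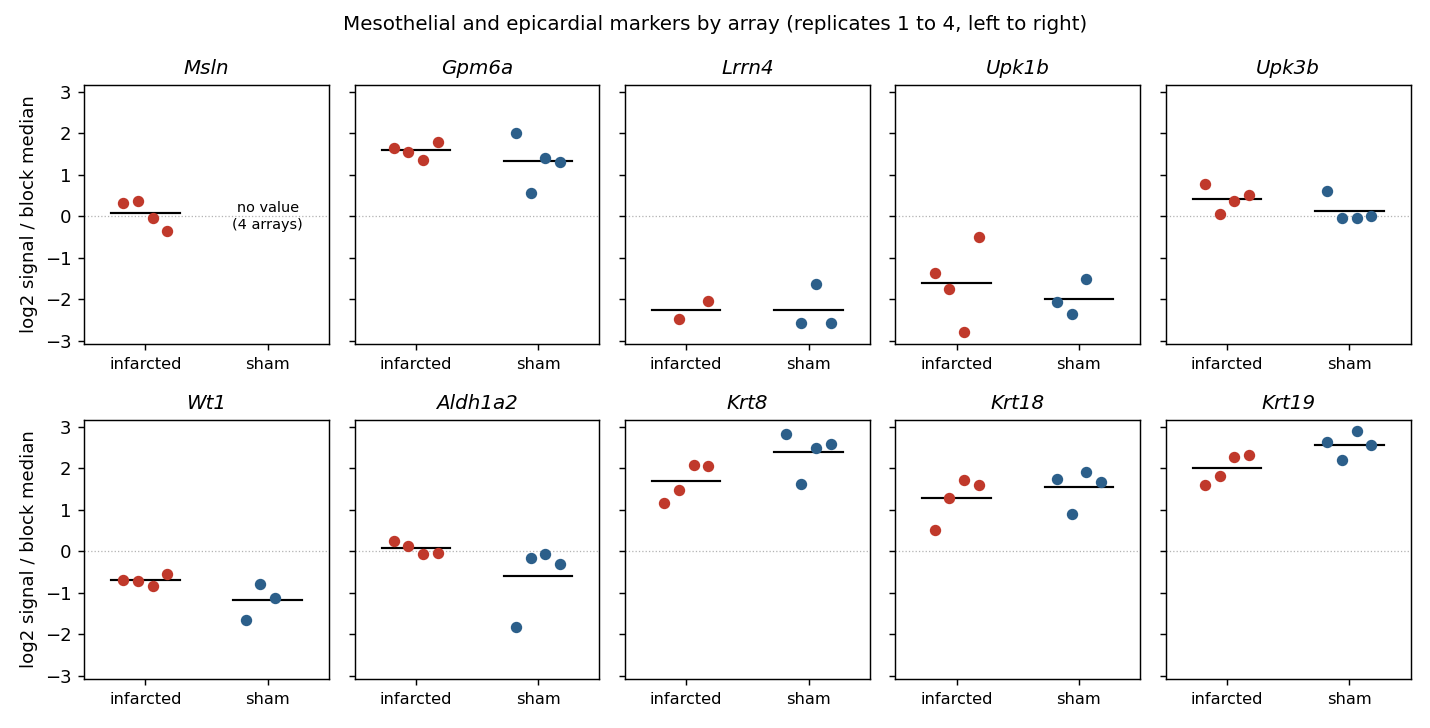
Log2 signal over the block median (vertical axis) on the 4 infarcted (red) and 4 sham control (blue) arrays for the 10 genes, replicates 1 to 4 from left to right, with group means as black bars. Msln has 4 values between -0.35 and 0.36 on infarcted arrays and none on sham arrays, and the groups overlap for the 8 tested genes.

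Msln encodes mesothelin, a surface glycoprotein of mesothelial cells. Its levels were 0.33, 0.36, -0.04 and -0.35 on infarcted replicates 1 to 4, and no sham array had a value. The spot's recovered scanner signals on the infarcted arrays were 587, 520, 466 and 263, where block medians were 466, 404, 478 and 336 and the lowest signal anywhere on the 8 arrays was 42. The signal of the Msln spot was thus close to the block median on every infarcted array and well above that lowest signal. How far it stood above local background is unknown, because no background values were given. No fold change is given, because a missing value sets no upper limit on the sham level.

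Such a pattern was rare. Of 20089 spots with a value on all 4 infarcted arrays, 27 (0.134%) had none on the sham arrays, and of 18008 spots with a value on all 4 sham arrays, 25 (0.139%) had none on the infarcted arrays. Among 4252 spots measured on all infarcted arrays whose mean level there lay within 0.5 of that of Msln, 6 had no sham value, whereas 98.8% had at least 3. In the opposite direction, 2 of 3917 spots measured on all sham arrays at that level had no infarcted value. Msln itself is 1 of these 6, and 2 more carry gene names, Clec10a, a lectin of macrophages (mean level 0.08), and Tmprss2, a serine protease of epithelia (-0.03), both named after their values were seen. The block that holds Msln had 3 spots with 4 infarcted values and no sham value among 407 (0.737%, beside 0.134% over all blocks). They were Msln and the far brighter Atp5b and Atp2a2 (mean levels 6.59 and 6.65). Of the 20 spots nearest to Msln by spot number, 62 of 80 values were present on infarcted arrays and 63 of 80 on sham arrays. Positions on the slide were not examined, so these counts do not describe all spots around it. Why the sham values are missing was not tested.

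**Figure D2:**
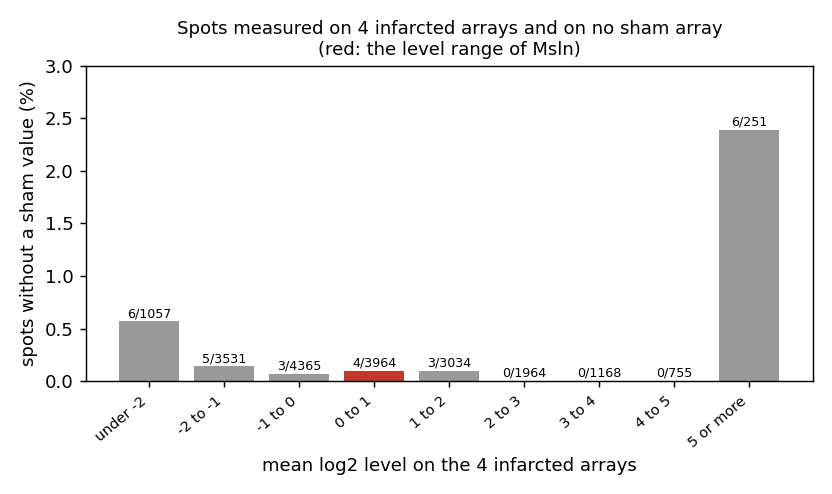
Percentage of spots with no value on any sham array (vertical axis) among spots with a value on all 4 infarcted arrays, by their mean log2 level on the infarcted arrays (horizontal axis), with counts above the bars. In the range that holds Msln, from 0 to 1, 4 of 3964 spots lacked all sham values, and the highest percentages lie under -2 (6 of 1057) and at 5 or more (6 of 251).

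Gpm6a, a membrane glycoprotein abundant in neurons and used as a marker of mesothelial cells, was measured on every array. Its levels were 1.64, 1.56, 1.36 and 1.79 on infarcted arrays, against 2.02, 0.57, 1.41 and 1.32 on sham arrays. The infarcted values were close together and lay within the range of the sham values, which was set by replicates 1 and 2. The log2 fold change was 0.26 ± 0.30 (SE, limma adjusted p = 0.797), with a 95% interval from -0.42 to 0.94, and it was 0.01 without sham control replicate 2. Its paralog Gpm6b stood at 0.20 ± 0.30 (SE, limma adjusted p = 0.850).

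Lrrn4, a leucine-rich repeat membrane protein known from mesothelial cells, was among the dimmest of these spots. It had levels of -2.46 and -2.03 on infarcted replicates 2 and 4, against -2.57, -1.62 and -2.57 on sham control replicates 2, 3 and 4. Its scanner signals were between 68 and 178, close to the lowest signal of 42, and the values of the groups lie in the same range. A log2 fold change of 0.01 came from the fit that admitted genes with 2 values in a group (adjusted p = 0.996). Its relatives Lrrn1 and Lrrn2 stood at -0.37 ± 0.29 and -0.30 ± 0.27 (SE, limma adjusted p = 0.673 and 0.727).

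Uroplakins are best known as the plaque proteins of the bladder surface, and Upk1b, a tetraspanin, and its partner Upk3b are shared with the mesothelium. Upk3b stood at 0.79, 0.06, 0.37 and 0.51 on infarcted arrays, against 0.61, -0.04, -0.04 and 0 on sham arrays. All 4 infarcted values exceeded 3 of the 4 sham values, and sham control replicate 1 stood apart from its group. The log2 fold change was 0.30 ± 0.25 (SE, limma adjusted p = 0.695, 95% interval -0.26 to 0.86), and 0.46 without that array (adjusted p = 0.550).

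Upk1b stood at -1.36, -1.75, -2.79 and -0.49 on infarcted arrays, against -2.06, -2.36 and -1.51 on sham control replicates 1 to 3. Its infarcted values spread on both sides of the sham range. Its log2 fold change, 0.38 ± 0.50 with a 95% interval from -0.75 to 1.51 (SE, limma adjusted p = 0.826), was 0.01 without infarcted replicate 4 and 0.78 without infarcted replicate 3. Of the uroplakins that mark the bladder and not the mesothelium, Upk2 had no value on any array, Upk1a had 1 value in each group, and Upk3a stood at -0.34 ± 0.38 (SE, limma adjusted p = 0.787). Among tetraspanins related to Upk1b, Cd151 averaged 2.04 ± 0.23 on infarcted arrays and 2.64 ± 0.19 on sham arrays (SD, n = 4 each), and Tspan8 -0.11 ± 0.26 on infarcted arrays and 0.49 ± 0.61 on sham arrays. Neither passed (limma adjusted p = 0.287 and 0.490). In the list of uroplakins and tetraspanins 7 of 10 genes were tested, 1 positive and 6 negative, with 0 calls, 1 unadjusted p under 0.05 and a median of -0.34, which was -0.07 after quantile normalization.

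Wt1 and Aldh1a2, the epicardial regulators of the set, had higher means in infarcted hearts, and neither passed the test. Wt1 encodes the zinc finger factor that drives the mesothelial programme and that is also made by endothelial cells after infarction in mice. It stood at -0.69, -0.71, -0.84 and -0.55 on infarcted arrays, against -1.65, -0.79 and -1.12 on sham control replicates 1 to 3, with no value on replicate 4. In 3 of the 4 infarcted hearts it lay above every measured sham heart, and the fourth lay between 2 sham values. The log2 fold change was 0.49 ± 0.27 (SE, limma adjusted p = 0.514), with a 95% interval from -0.12 to 1.09. It was 0.26 without sham control replicate 1 and 0.69 without sham control replicate 2 (adjusted p = 0.787 and 0.294). Each of these fits had only 2 sham values of Wt1.

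Aldh1a2 encodes the enzyme that makes retinoic acid in the epicardium. It stood at 0.25, 0.13, -0.08 and -0.04 on infarcted arrays, against -1.82, -0.16, -0.07 and -0.31 on sham arrays. The infarcted values lay close together around the block median, and 3 of them were above every sham value. Sham control replicate 1 was far below the other 3. The difference of 0.66 ± 0.38 on the log2 scale (SE, limma adjusted p = 0.533, 95% interval -0.18 to 1.49) was the largest positive value of the 8 genes and was 0.25 ± 0.22 without that array (adjusted p = 0.748).

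In the retinoid pathway around Aldh1a2, 15 of 18 listed genes were on the array and 10 were tested, 4 positive and 6 negative, with 0 calls, 0 unadjusted p under 0.05 and a median of -0.04, which turned to 0.07 after quantile normalization. Aldh1a3, a sister enzyme, stood at 0.25, -0.01, 0.45 and 0.50 on infarcted arrays, against -0.48, -2.10, 0.27 and -0.20 on sham arrays (0.92 ± 0.45, SE, limma adjusted p = 0.458). Aldh1a1, another retinaldehyde dehydrogenase, had -0.34 ± 0.27 (adjusted p = 0.676). The storage enzyme gene Lrat and the degrading enzyme genes Cyp26a1 and Cyp26b1 had at most 2 values in a group.

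Other epicardial and mesothelial genes were mixed. Of 28 listed, 22 were on the array and 16 were tested, 10 positive and 6 negative, with 0 calls, 1 unadjusted p under 0.05 and a median of 0.03, beside -0.08 over all features. Efemp1, the extracellular glycoprotein fibulin-3, stood at 0.98, 0.75, 0.78 and 0.63 on infarcted arrays, against 0.01, 0.43, 0.33 and 0.04 on sham arrays. Its groups did not overlap, but its fold change of 0.58 ± 0.21 did not pass (SE, limma adjusted p = 0.288). Igfbp6, a binding protein of insulin-like growth factors, stood at 2.46, 2.29, 2.59 and 2.83 on infarcted arrays, against 2.003, 2.14, 2.20 and 2.20 on sham arrays (0.41 ± 0.21, SE, adjusted p = 0.469). The epicardial transcription factors Tbx18 and Tcf21 stood at -0.01 ± 0.37 and -0.67 ± 0.56 (SE, adjusted p = 0.997 and 0.693), and Bnc1, Itga4, Gata5 and Pkhd1l1 had no value on any array.

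**Figure D3:**
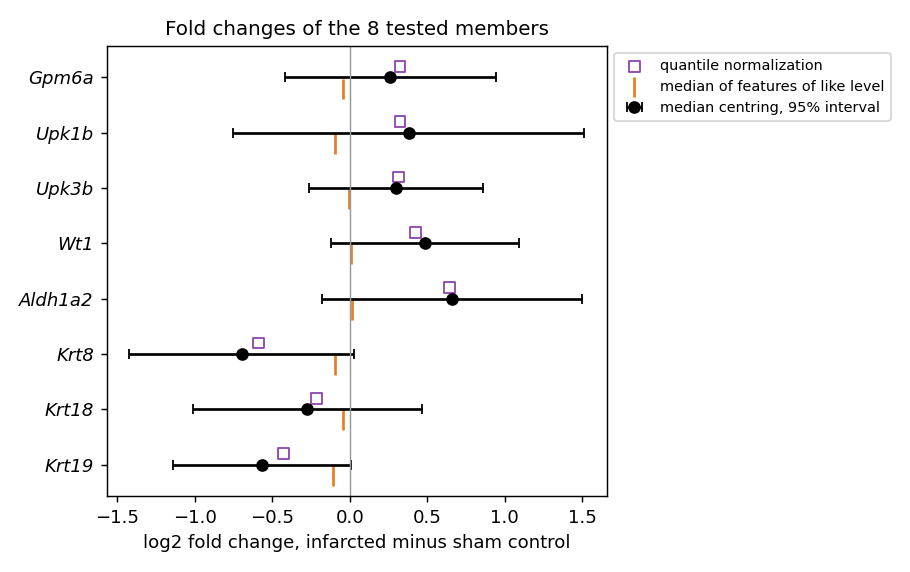
Log2 fold changes, infarcted minus sham control (horizontal axis), of the 8 tested genes with 95% intervals of the limma fit (black), after quantile normalization (open squares), and the median of all features whose mean level lay within 0.5 of the gene's (orange bars). All 8 intervals include 0, and the 3 keratins are the genes with negative values.

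Krt8, Krt18 and Krt19 encode intermediate filament proteins of simple epithelia, where the type II keratin 8 pairs with the type I keratins 18 and 19. Krt8 stood at 1.16, 1.48, 2.07 and 2.04 on infarcted arrays, against 2.83, 1.63, 2.49 and 2.58 on sham arrays. Every infarcted value lay below 3 of the 4 sham values, and sham control replicate 2 was within the infarcted range. The log2 fold change was -0.70 ± 0.32 (SE, limma adjusted p = 0.430), with a 95% interval from -1.42 to 0.03. Krt19 stood at 1.58, 1.81, 2.27 and 2.33 on infarcted arrays, against 2.62, 2.19, 2.88 and 2.55 on sham arrays. Again sham control replicate 2 alone lay within the infarcted range, and the fold change was -0.57 ± 0.26 (SE, limma adjusted p = 0.413, interval -1.14 to 0.01).

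Krt18 differed less, with 0.52, 1.29, 1.72 and 1.60 on infarcted arrays, against 1.75, 0.90, 1.91 and 1.66 on sham arrays. Infarcted replicate 1 and sham control replicate 2 were its lowest values, and of the other 3 infarcted arrays 1 lay within the range of the other 3 sham arrays and 2 lay below it (-0.27 ± 0.33, SE, limma adjusted p = 0.806). Without sham control replicate 2 the changes of Krt8, Krt18 and Krt19 were -0.95, -0.49 and -0.69 (adjusted p = 0.193, 0.499 and 0.266), without infarcted replicate 1 they were -0.52, -0.02 and -0.43 (adjusted p = 0.663, 0.989 and 0.648), and after quantile normalization they were -0.59, -0.21 and -0.43. All features whose mean level lay within 0.5 of that of Krt8 had a median change of -0.10, with quartiles of -0.34 and 0.16.

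The 3 keratins moved together from array to array. Over the 8 arrays the Pearson correlation of levels was 0.92 between Krt8 and Krt19, 0.86 between Krt8 and Krt18 and 0.84 between Krt18 and Krt19, and after removal of the group means it was 0.86, 0.91 and 0.93. The points share their arrays and are a description. With Krt8, the correlation of levels was 0.28 for Gpm6a, -0.17 for Upk3b and -0.71 for Aldh1a2, and after removal of the group means it was 0.66 for Gpm6a, 0.21 for Upk3b and -0.56 for Aldh1a2. By group, the correlation of Gpm6a with Krt8 was 0.95 on sham arrays and -0.16 on infarcted arrays. The pooled 0.66 thus rested on the sham group. The fold changes of Gpm6a and Krt8, neither past the test, had opposite signs. The epithelial partners of the keratins did not pass either. Of 13 listed keratin and junction genes 11 were tested, 3 positive and 8 negative, with 0 calls, 0 unadjusted p under 0.05 and a median of -0.05. Epcam, an adhesion molecule of epithelia, stood at -0.65 ± 0.33 (SE, limma adjusted p = 0.475), Krt5, a basal keratin, at -0.91 ± 0.49 (adjusted p = 0.4998), and Krt7, another simple keratin, at 0.16 ± 0.36 (adjusted p = 0.904).

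The genes for the partner keratins 8 and 18 are neighbours on mouse chromosome 15, with 2 annotated genes between them, and run in opposite directions. Their start regions are shown because these genes had parallel values. RefSeq entries of build GRCm38.p6 were given for 6 of the 10 genes, and each window covers 250 bases before and 20 bases after the annotated start. Capitals mark TATAA on either strand, which overlaps itself in the Krt8 window. The sequences lie at chr15:102004323-102004592 on the minus strand for Krt8 and at chr15:102027966-102028235 on the plus strand for Krt18.
Krt8: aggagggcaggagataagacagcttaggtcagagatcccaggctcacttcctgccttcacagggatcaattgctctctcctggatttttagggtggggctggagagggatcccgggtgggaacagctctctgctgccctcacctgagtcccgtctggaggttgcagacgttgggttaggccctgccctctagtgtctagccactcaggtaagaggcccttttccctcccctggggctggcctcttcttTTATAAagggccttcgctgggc
Krt18: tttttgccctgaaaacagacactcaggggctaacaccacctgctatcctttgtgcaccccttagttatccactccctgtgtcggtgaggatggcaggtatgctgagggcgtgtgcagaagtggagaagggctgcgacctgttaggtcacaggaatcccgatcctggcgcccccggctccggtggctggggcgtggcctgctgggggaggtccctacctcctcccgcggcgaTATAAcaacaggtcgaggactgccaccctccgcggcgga
The last match began 1 base before the annotated start in Krt8 and 19 bases before it in Krt18. Of 32851 windows of the same length 23.7% held TATAA on either strand, and of the 6 genes with an entry Krt8, Krt18 and 1 of the 2 entries of Gpm6a did. A match is a description of these letters.

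Markers of lung and of some other organs moved with the keratins from array to array. Of 10 lung and airway markers 7 were tested and all 7 had negative fold changes (Epcam is in this list too), with 0 calls, 2 unadjusted p under 0.05 and a median of -0.51. Cdh1 and Cldn18 were close to 0 (-0.02 and -0.07), and of all 18044 features tested 10371 were negative. Scgb1a1, the secretoglobin of airway club cells, stood at 3.15, 2.99, 2.91 and 3.78 on infarcted arrays, against 4.96, 3.05, 5.30 and 4.66 on sham arrays. Sftpc, the surfactant protein of alveolar cells, stood at 2.02, 2.004, 2.05 and 2.55 on infarcted arrays, against 3.95, 1.89, 3.97 and 3.59 on sham arrays. The log2 fold changes of Scgb1a1 and Sftpc were -1.29 and -1.19, and -0.85 and -0.98 after quantile normalization. In both genes sham control replicate 2 was within or just below the infarcted range and the other 3 sham arrays were higher, as in Krt8 and Krt19. The mean level of the 7 lung markers was 0.11 to 0.41 on infarcted arrays and -0.35 to 1.23 on sham arrays. Its correlation with the mean of the 3 keratins over the 8 arrays, with the group means left in, was 0.84.

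Markers of other organs in the reference pool, a list added after the lung values were seen, differed by organ. Of 38 such genes 23 were tested, 5 positive and 18 negative, with 8 unadjusted p under 0.05 and a median of -0.50 (-0.46 after quantile normalization), and 1 passed, Prm2 (-1.69 ± 0.26, SE, limma adjusted p = 0.0314). The mean of the 22 genes complete on all arrays was 1.38, 1.36, 1.60 and 1.68 on infarcted arrays, against 2.30, 1.40, 2.61 and 2.15 on sham arrays. Its correlation over the 8 arrays was 0.88 with Krt8, 0.75 with Krt18, 0.90 with Krt19, 0.28 with Gpm6a, -0.21 with Upk3b and -0.52 with Aldh1a2. After removal of the group means it was 0.79 with Krt8, 0.77 with Krt18, 0.81 with Krt19, 0.72 with Gpm6a, 0.19 with Upk3b and -0.25 with Aldh1a2. The value of Gpm6a was then close to those of the keratins, but it pools both groups and was not split by group. For the 4 testis genes Prm1, Prm2, Tnp1 and Tnp2 the mean level was 2.80 ± 0.25 on infarcted arrays and 4.21 ± 0.84 on sham arrays (SD, n = 4 each), and for 5 liver genes, Apoa1, Apoc3 and Ttr among them, 1.88 ± 0.41 on infarcted arrays and 2.89 ± 0.43 on sham arrays. For 5 stomach genes it was 1.81 ± 0.09 on infarcted arrays and 2.50 ± 0.63 on sham arrays. The median log2 fold changes of the testis and liver genes were -1.39 and -1.11, and -1.01 and -0.86 after quantile normalization. The means were close to each other for 3 brain genes, 0.46 ± 0.23 on infarcted arrays and 0.39 ± 0.48 on sham arrays, and for 4 spleen genes, -0.04 ± 0.29 on infarcted arrays and -0.03 ± 0.47 on sham arrays. The 1 kidney gene tested was at 2.21 ± 0.19 on infarcted arrays and 1.72 ± 2.34 on sham arrays. The correlation with the keratin mean, with the group means left in, was 0.93 for liver, 0.85 for testis, 0.75 for stomach, 0.69 for spleen, 0.27 for brain and -0.28 for kidney. The 5 liver genes, and so the 22 genes, include Slc27a5, which was also the gene most like Krt8 (0.989). The liver and 22-gene correlations are thus not separate from that likeness. The cause of these correlations with the keratins was not tested.

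**Figure D4:**
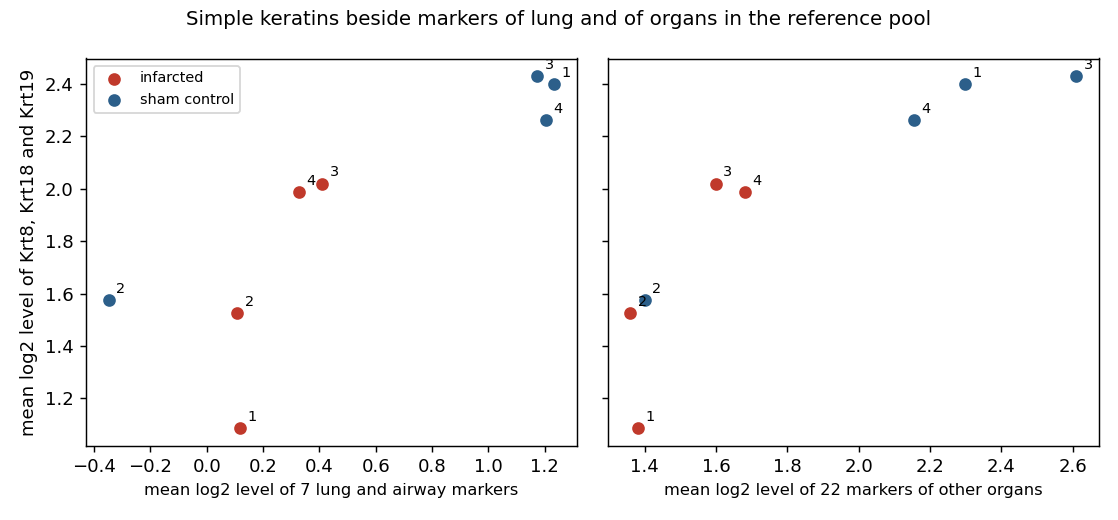
Mean log2 level of Krt8, Krt18 and Krt19 (vertical axis) against the mean log2 level of 7 lung and airway markers (left) and of 22 markers of other organs of the reference pool (right), 1 point per array, numbered by replicate, infarcted in red and sham control in blue. Sham control replicates 1, 3 and 4 are at the upper right of both panels and sham control replicate 2 lies within the infarcted range of keratin levels, with the lowest lung marker mean of the 8 arrays (-0.35).

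The genes whose levels ran most like the brightest members were of several tissues. Among 8616 named genes complete on all arrays, those with the highest Pearson correlation with Krt8 over the 8 arrays were Slc27a5, a bile acid enzyme of the liver (0.989), Hspb9, a small heat shock protein of testis (0.982), and Llcfc1 (0.973), and 60 genes exceeded 0.9. For Krt19 they were Nt5c1b (0.971), the pancreatic ribonuclease gene Rnase1 (0.969) and the somatostatin gene Sst (0.968), with 47 genes over 0.9. For Gpm6a they were Lcat (0.955), Clip1 (0.955) and Tceal6 (0.953).

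Markers of other cells of the heart gave 0 calls in the lists that follow. All 5 tested macrophage markers were positive, with a median of 0.97 and 4 unadjusted p under 0.05, and their mean level was -0.18 to 0.14 on infarcted arrays and -1.15 to -0.78 on sham arrays. Fibroblast markers, 8 of 8 tested, had a median of -0.12 with 2 positive and 6 negative values, and endothelial markers, 6 of 7 tested, had a median of -0.11 with 3 of each sign. These lists had 2 and 1 unadjusted p under 0.05, and after quantile normalization both medians turned sign, to 0.06 for fibroblasts and 0.05 for endothelium. The 2 fibroblast genes had opposite signs, Postn at 1.76 ± 0.54 and Col3a1 at -0.61 ± 0.22 (SE, limma adjusted p = 0.209 and 0.293). After quantile normalization they were at 1.83 and -0.15.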

How the data were processed

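Whole-heart RNA of 4 infarcted and 4 sham control mice was hybridised to 2-colour spotted arrays, 1 array per heart, with the heart RNA in Alexa Fluor 647 and the reference RNA in Alexa Fluor 555 (30 µg each) and no dye swap, per the labels' protocols. The deposited values are on a log2 scale with a median of 0 in each array. In all 384 combinations of 48 blocks and 8 arrays, 2 to the power of each value times 1 constant gave whole numbers (tolerance 0.001), from 42 to 65466, so the deposited log2 values were read as 1 channel's signal over its block median. The sources used here do not give scanner software, background correction or spot filters. A log ratio had been assumed when the tests were planned. The same test was kept.

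Of 33600 probes 18179 had 1 symbol, 87 several and 15334 none in the platform annotation, and 0 symbols needed an update through RefSeq (assembly GRCm38.p6). Spots of a gene were averaged. Arrays were centred on their median, and each feature with 3 or more values per group entered a linear model in limma 3.58.1 (R 4.3.3) with moderated variances and Benjamini-Hochberg adjustment over 18044 features. The script was tested on simulated data. Replicate arrays within a group correlated between 0.849 and 0.952 over 15219 features. They came from separate hearts, so p-values cover animal and array spread together. The members and lists were chosen with earlier results of these data known. Of each list of related genes those past the threshold, or otherwise the 2 with the smallest p, were named, and further members are named where they had few values or a known role. Likeness was the Pearson correlation over 8 arrays for the 3 complete members of highest level. Alternatives were quantile normalization, loess, no centring, other filters on missing or dim values, other summaries of probes, a trended robust prior, a replicate block and leaving out each array. The fits that left out an array kept the same 18044 features, so some features then had 2 values in a group.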

Additional observations from a re-analysis of the deposited data

Results flagged for a closer look

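Of 15 groups of 4 values of the 10 genes, 2 held an array far from the other 3, where chance gives about 1 in 20 groups. Aldh1a2 stood at -1.82 on sham control replicate 1, and the gap to the next array was 0.864 of the group's range. Upk3b stood at 0.61 on the same array, with a gap of 0.932 of the range.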

How the results depend on the processing

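None of the members passed the threshold under any of the 18 alternatives, and each of the 8 tested genes kept the sign of its fold change in every alternative that could test it. Wt1 and Upk1b drop out where values on all 8 arrays are required, and Upk1b also where dim features are left out. Krt8 ran from -0.95 to -0.52, Krt19 from -0.69 to -0.41, Krt18 from -0.49 to -0.02, Wt1 from 0.26 to 0.69, Aldh1a2 from 0.25 to 0.83, Upk3b from 0.18 to 0.46, Gpm6a from 0.01 to 0.49 and Upk1b from 0.01 to 0.78. The number of features that passed, 99 with median centring, was 32 with quantile normalization, 28 with loess and 157 with each probe fitted on its own, which tests more rows. Leaving out 1 infarcted array gave 10, 6, 3 and 4 for replicates 1 to 4, leaving out 1 sham control array gave 25, 37, 28 and 666, and the cause was not tested. The replicate numbers were not treated as pairs. Deviations of same-numbered arrays correlated at 0.02, 0.31, -0.08 and -0.19, and with the replicate block 1 feature passed and no member did. With the block, Upk1b was at 0.01 against 0.38, and the median of the 8 genes was 0.13 against 0.28. Upk1b had the same value without infarcted replicate 4. Sham control replicate 4 has no value of Upk1b, so with the block infarcted replicate 4 adds nothing to its contrast. The trended robust prior gave 1 unadjusted p under 0.05 among the 8 genes, that of Krt19 (0.0458). How far the dim spots of Lrrn4 and Upk1b stood above local background is unknown, because no background values were given.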
